A study of Drosophila melanogaster with 4 samples.

Results

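The centromere-proximal 2 Mb of the left arm of chromosome 3 (3L) of Drosophila melanogaster was examined for enrichment of heterochromatin protein HP2. The members were all deposited enriched regions, called clusters here, on 3L whose midpoint lay above position 22543557 on FlyBase r5, together with the 2000 bins of 1 kb from 22543001 to 24543000. They numbered 184 of 4728 clusters in HP2 ChIP replicate 1, 196 of 4163 in replicate 2 and 231 of 7037 in the authors' combined list. The samples were 2 HP2 chromatin immunoprecipitations (ChIP, antibody Ab2-90) and 2 inputs, all from head nuclei of wild-type Oregon-R flies labelled mixed adult, grown in population cages. Heads hold many cell types, so each list averages over them, and the labels give no age or sex. Each input label names the ChIP list it served, so an input enters only through the calls of its replicate. The labels do not say whether the replicates came from separate collections, and the spread between them may therefore be technical. No read counts come with the lists, and the depth is unknown.

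Pericentric heterochromatin is the compact, repeat-rich chromatin that surrounds the centromere. It is marked by methylated histone H3, which HP1 binds, and HP2 is a large protein known as a partner of HP1. Mutations in the HP2 gene dominantly suppress position-effect variegation, the silencing of genes placed next to heterochromatin. Where the assembled sequence of an arm runs from gene-rich euchromatin into HP2-rich heterochromatin, the end of the HP2-rich stretch can be read as a position. The question taken here was where on 3L that edge lies and how HP2 is arranged on either side of it. No sequence or gene annotation on r5 was used here, so the regions are given by position only.

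For most clusters the authors' score behaved as the log2 of a ratio. All 89 score values carried by at least 3 clusters of replicate 1 equalled, within 1e-10, the log2 of a ratio of whole numbers plus 1 constant for the list (0.0877). The same held for all 76 such values of replicate 2 (constant 0.135) and all 169 of the combined list (constant 0.112), with numerators up to 1000 and denominators up to 500. Of single clusters, 4365 in replicate 1, 3826 in replicate 2 and 5272 in the combined list lay on this ladder. Of the proximal 3L members, 159 of 184, 170 of 196 and 144 of 231 did. The members off the ladder were longer, with a median of 9949 bp against 2046 bp on it in replicate 1. In replicate 2 the medians were 11360 and 2224 bp, and in the combined list 6533 and 1935 bp. For scores on the ladder, a difference of 1 within a list is thus a factor of 2 in the scored ratio. Whether the same holds for the other scores was not tested. Each constant is fixed only up to a ratio of whole numbers. The numbers behind the ratios were not recovered, and scores are compared only within a list.

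HP2 clusters covered much more of the proximal 2 Mb than of the rest of the arm. In replicate 1 they covered 36.9% of proximal 3L, against 6.39% of the rest of 3L. In replicate 2 they covered 42.2% of proximal 3L, against 4.81% of the rest. The difference was 33.9 ± 4.88 percentage points (SD, n = 2), several times the spread between the replicates. With 2 replicates the exact two-sided sign-flip permutation test gives p = 0.5, the smallest it allows, so this test cannot pass any threshold here. The same held for the differences from proximal 2L and 3LHet. Of the 2000 bins, 747 in replicate 1 and 849 in replicate 2 were at least 50% in clusters, or 37.4% and 42.5%. Over all 1 kb bins of the 5 long arms that share was 8.71% in replicate 1 and 7.35% in replicate 2. In the combined list it was 57.9% of the bins of proximal 3L, against 11.6% over the long arms.

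The fitted edge of the covered part lay at nearly the same place in both replicates. A single step was placed in the percentages of the 2000 bins where it left the smallest squared residuals, with at least 50 bins on each side. It fell at 23032001 in replicate 1 and at 23033001 in replicate 2, about 1511 kb from the end of the assembled arm. These positions are 1 bin apart. The exactness of the fit cannot be read from that. On simulated clusters with a known edge its error was usually many bins. The simulation drew cluster lengths from all members on both sides, though long ones lay only on the centromere side. Its error may therefore differ from that of the fit here. Coverage on the centromere side of the step was 45.7% in replicate 1 and 53.9% in replicate 2, and on the distal side 9.56% and 5.92%. The step averaged 42.0 ± 8.41 percentage points (SD, n = 2), from 36.1 in replicate 1 and 48.0 in replicate 2. Its position was chosen on these same values, so the step size is a description. A single step took up 11.7% of the variance between bins in replicate 1 and 19.9% in replicate 2. What made up the rest was not tested. With only the higher-scoring clusters, those with at least the median score of their list, it fell at 23072001 in replicate 1 and 23036001 in replicate 2. Fitted to the mean of both replicates, the step lay at 23033001. The sequence from there to the arm end is called the block below, and the 489 kb of the proximal 2 Mb on its distal side the flank.

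**Figure D1:**
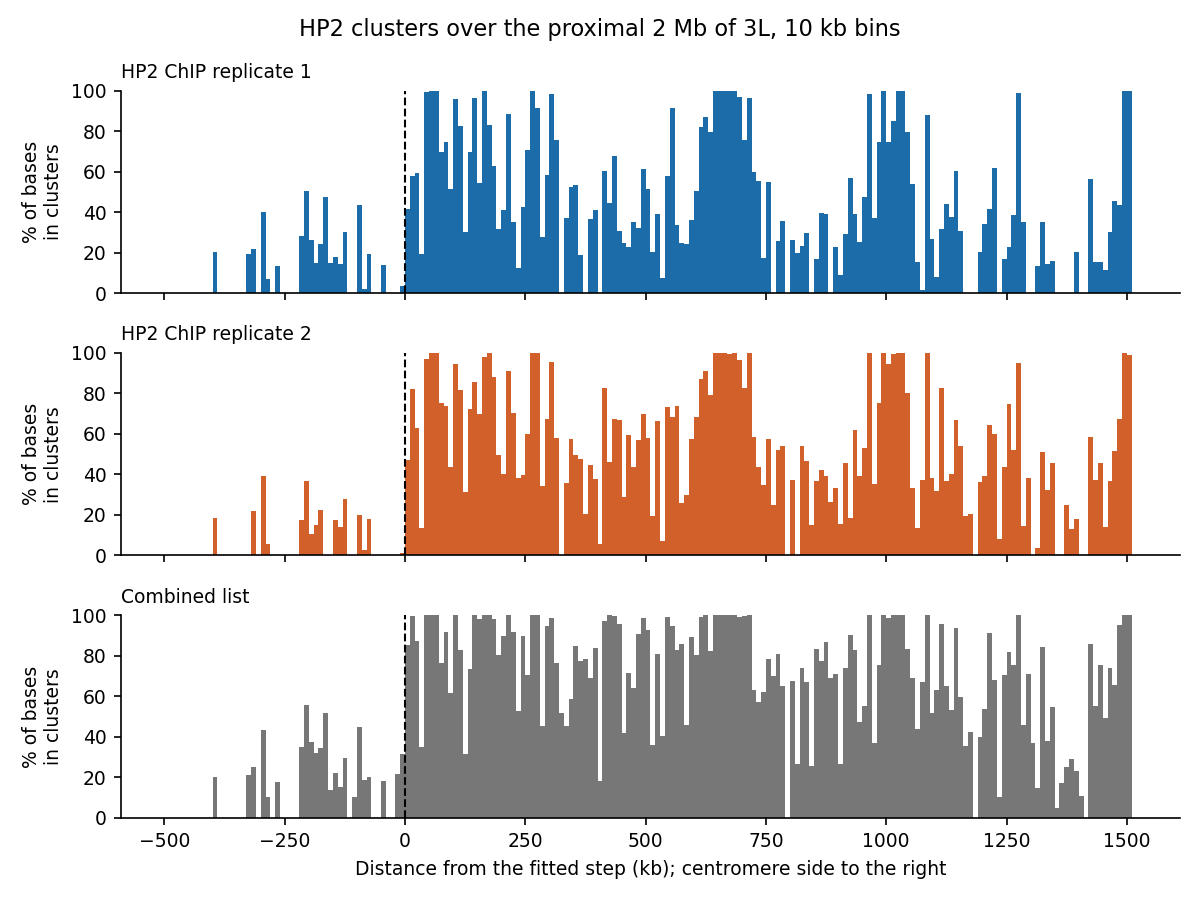
Percent of bases in HP2 clusters in 10 kb bins (vertical axes) against the distance in kb from the step fitted to the mean of both replicates (dashed line), for replicate 1, replicate 2 and the combined list. Coverage is low to the left of the line and high but broken to its right, with similar main peaks in the 3 lists and several troughs partly filled in the combined list.

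The clusters next to the edge began close together in the replicates. On the centromere side, the cluster nearest to the edge ran from 23032638 to 23035836 in replicate 1, with a score of 0.662. In replicate 2 it spanned 23032868 to 23034404 and scored 0.474. Their starts differ by less than the length of either cluster. On the distal side the next cluster of replicate 2 ended at 22954796, leaving 78071 bp without a cluster. Replicate 1 held 1 short cluster within that stretch, from 22991064 to 22992469 with a score of 0.454, so its empty stretch was 40168 bp. The 25 kb before the cluster at the edge held no cluster bases in either replicate, whereas the 25 kb from its start were 51.1% covered in replicate 1 and 64.9% in replicate 2. Over 100 kb on each side, coverage was 67.3% on the centromere side and 7.89% on the distal side in replicate 1, and 69.6% and 4.08% in replicate 2. These stretches were measured from the start of a cluster at an edge fitted to the same coverage. That placing favours a contrast at short distances, so the values are a description.

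The combined list had further calls outside the edge. Its step fell at 23032001, but it held 3 further short clusters between 23018582 and 23025576, with scores of 0.392, 0.382 and 0.390, in sequence where neither replicate had a call. Measured in the same way, the 25 kb before its cluster at the edge were 15.9% covered, against 92.7% from its start.

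**Figure D2:**
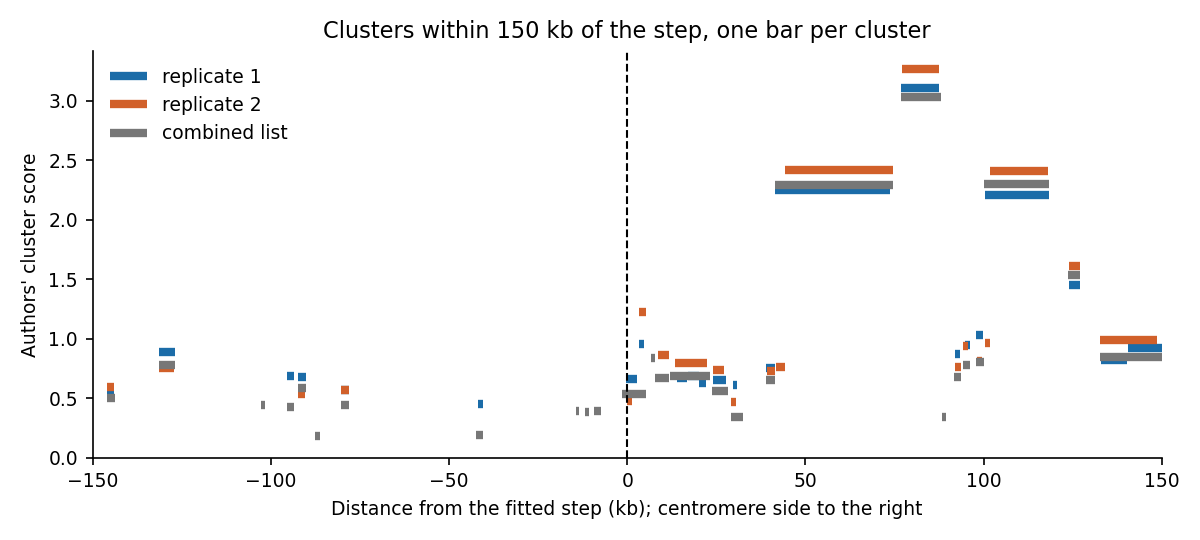
Each bar is a cluster near the step, drawn at its position (horizontal axis, kb from the step, centromere side to the right) and its score (vertical axis, authors' score). Clusters of replicate 1, replicate 2 and the combined list lie over each other, and those within the 40 kb inside the edge score lower than the long clusters that follow.

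Enrichment did not reach its highest level at the edge itself. Over the 40 kb inside it, clusters were short to medium in length and their scores stayed at 1.23 or below in both replicates. The second longest shared cluster of the region followed, from 23074538 to 23106859 (32322 bp, score 2.25 in replicate 1 and at most 2.41 in replicate 2). Next to it lay the highest-scoring member of both replicates. Replicate 1 placed it from 23109912 to 23120435 and scored it 3.11, and replicate 2 placed it from 23110009 to 23120383 and scored it 3.26. The highest scores on the rest of 3L were 2.44 in replicate 1 and 2.24 in replicate 2. Its score ranked 21 of 4728 in the whole list of replicate 1 and 16 of 4163 in that of replicate 2. A further cluster from 23133427 to 23151226 scored 2.20 in replicate 1 and at most 2.41 in replicate 2. The highest-scoring long clusters of the block thus began about 41.5 kb inside the edge.

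Divided into 3 sections, the block was most covered next to the edge and least covered towards the arm end. Clusters took up 54.7% of the 500 kb nearest the edge in replicate 1 and 61.6% in replicate 2. They took up 48.7% and 55.7% of the next 500 kb, and 33.8% and 44.6% of the remaining 511 kb. The combined list gave the same order, with 80.8%, 74.4% and 60.2%. At a finer scale there was no steady decline. Windows of 250 kb from 23043001 on held 65.1%, 44.8%, 63.6%, 34.8%, 38.3% and 27.6% in replicate 1, and 70.4%, 53.4%, 68.8%, 44.1%, 51.2% and 35.9% in replicate 2. The last 50 kb window, at the arm end, held 63.9% in replicate 1 and 70.8% in replicate 2.

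Several long domains carried much of the covered length. Clusters of at least 10 kb numbered 13 in replicate 1 and 18 in replicate 2, all in the block, and held 36.6% and 39.7% of the summed length of all members. On the much longer rest of 3L there was 1 such cluster in replicate 1 and none in replicate 2. The longest member of replicate 1 spanned 56646 bp, from 23670264 to 23726909, and ranked 5 of 4728 in length. In replicate 2 the same sequence was split between 2 clusters that covered 99.6% of it, and in the combined list it lay wholly in 1. With its neighbours, among them a cluster from 23663073 to 23668293 (score 2.78 in replicate 1, 2.48 in replicate 2), it formed the densest part of the region. Coverage of the 50 kb window from 23643001 was 89.7% in replicate 1 and 91.5% in replicate 2, and of the next window 94.4% and 95.7%.

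Other domains stood apart along the block. Clusters from 24012835 to 24016916 (score 2.62 in replicate 1, 2.82 in replicate 2), from 24019469 to 24038272 (18804 bp, 2.23 and 2.25) and from 24051200 to 24076922 (25723 bp, 1.48 and 1.54) lay close together, and the windows from 23993001 and 24043001 were at least 76.8% covered in each replicate. A domain nearer the edge included clusters from 23287506 to 23312151 (24646 bp, 1.25 and 1.22), from 23328008 to 23334418 (2.90 and 3.12) and from 23334616 to 23348743 (14128 bp, 1.33 and 1.38). At the arm end, the cluster from 24520278 scored 2.32 in replicate 1 and ran 440 bp past the stated end of the arm at 24543557. Replicate 2 split it into 2 clusters, the higher of which scored 2.46, and also ran past the end, by 213 bp. Of the 10 longest shared clusters of replicate 1 all lay in the block, and replicate 2 covered at least 81.7% of each.

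Between the domains lay stretches without HP2 clusters that both replicates left empty. Uncovered stretches of at least 10 kb in the block numbered 22 in replicate 1, 15 in replicate 2 and 7 in the combined list. Counting only bases that neither replicate called, 13 such stretches remained, 205 kb in all. They were concentrated near the arm end: 8 of the 13, with 144 kb, lay in the last section of 511 kb, against 3 (32.9 kb) in the section nearest the edge and 2 (27.3 kb) in the middle section. The longest ran from 24379782 to 24409661 (29880 bp) and the next from 24428282 to 24457154 (28873 bp). The combined list covered 7.67% and 13.2% of these. Nearer the edge the longest was that from 23818533 to 23835109 (16577 bp), of which the combined list covered 9.55%. Others were filled in part in that list, up to 55.2% for the stretch from 23352999 to 23363789. Unassembled bases also count as uncovered, and their share of these stretches was not tested.

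The flank held few and short clusters and resembled the rest of the arm more than the block. It had 21 clusters in replicate 1 and 13 in replicate 2, or 42.9 and 26.6 per Mb, against 29.5 and 22.8 per Mb on the rest of 3L. The block had 108 per Mb in replicate 1 and 121 in replicate 2. No flank cluster was longer than 4442 bp in replicate 1 or 4202 bp in replicate 2. Clusters covered 9.62% of the flank in replicate 1, against 6.39% of the rest of 3L, and 5.93% of the flank in replicate 2, against 4.81% of the rest. The flank was thus higher by 3.24 percentage points in replicate 1 and by 1.12 in replicate 2, a mean difference of 2.18 that is about as large as the difference between the replicates. The outermost part of the flank was nearly empty, and the cluster that marks its start ran from 22634785 to 22636804 in replicate 1, where its score was 0.638. The last cluster outside the 2 Mb in that replicate ran from 22411439 to 22413531 and scored 0.898.

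Shared flank clusters were 12 in each replicate. Shared means that clusters of the other replicate covered 50% or more of its bases. The strongest lay well outside the edge, from 22829973 to 22834269, and scored 2.22 in replicate 1. Clusters of replicate 2 covered 58.0% of it, and the higher-scoring of these, from 22831629 to 22834049, had 2.55. The combined list held it in a cluster of 1.63. In each replicate it was the only flank cluster to score above 1. The longest, from 22901557 to 22905998, scored 0.885 in replicate 1 and 0.752 in replicate 2. The other 8 of the 10 longest scored between 0.522 and 0.845 in replicate 1. The outermost of them, at 22634785, scored 0.638 in replicate 1 and 0.171 in replicate 2, the lowest score of any member in that replicate.

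The replicates largely called the same bases, but replicate 2 called more of the block and replicate 1 more of the flank. In the block, 622.6 kb lay in clusters of both, which was 90.2% of the covered bases of replicate 1 and 76.4% of those of replicate 2. No chance level was computed for these shares. Bases called in replicate 2 alone came to 192 kb in the block, and those called in replicate 1 alone to 67.4 kb. In the flank the order was the other way round, with 2.54 kb in replicate 2 alone and 20.6 kb in replicate 1 alone. On the rest of 3L, replicate 2 alone held 64.3 kb and replicate 1 alone 420.4 kb. Replicate 2 thus covered 8.25 percentage points more of the block than replicate 1, but 3.70 points less of the flank and 1.58 points less of the rest of the arm. The step between block and flank was therefore larger in replicate 2. The sources used here give neither depth nor immunoprecipitation efficiency of the libraries, and their part in this was not tested.

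Counts of shared clusters followed the same pattern. In the block 136 of 163 clusters of replicate 1 were shared, or 83.4% (95% Wilson interval 77.0% to 88.4%, counting error only). Of the 183 block clusters of replicate 2, 116 were shared, or 63.4% (56.2% to 70.0%). The intervals take clusters as independent, but neighbours can be parts of the same domain, so they are descriptions. Over all arms and scaffolds 74.3% of the clusters of replicate 1 and 83.5% of those of replicate 2 were shared. The block lay above that level in replicate 1 and below it in replicate 2. Overlap arises more easily where the other list covers more, as in the block, and no chance level was computed. The block clusters of replicate 2 that touched no cluster of replicate 1 numbered 49. They were short, with a median of 1866 bp, and their median score of 0.749 was close to the 0.751 of all its block clusters. Of these, 24 lay in the last 511 kb, 16 in the middle section and 9 nearest the edge. The combined list covered at least 50% of each of the 49, and of each of the 16 block clusters that only replicate 1 held. Some unshared clusters scored high, and the highest are named after their values were seen. Among the 49 of replicate 2, those from 24130095 to 24131531 and from 24038761 to 24040626 had 2.22 and 2.13. Among the 16 of replicate 1, those from 24090295 to 24091781 and from 24096853 to 24098392 had 2.67 and 1.87.

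**Figure D3:**
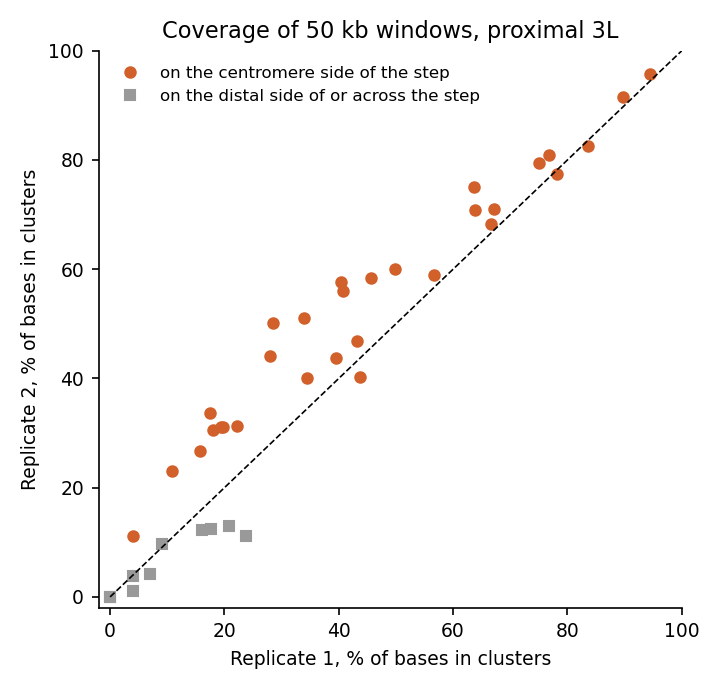
Percent of bases in clusters of replicate 2 (vertical axis) against replicate 1 (horizontal axis) for the 40 windows of 50 kb in proximal 3L. Windows in the block (circles) lie mostly above the dashed line of equal coverage, while those in the flank or across the edge (squares) lie on or below it, except the window across the edge at 9.01% in replicate 1 and 9.66% in replicate 2.

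The extra coverage of replicate 2 was found mainly in the sparse parts of the block. Of its 30 windows of 50 kb, 27 were covered more in replicate 2 and 3 less. In the 10 windows with a mean coverage of at least 60%, the median difference was 2.81 percentage points. In the other 20 it was 11.6 points, and 13 of them differed by over 10 points. The largest difference was 21.5 points, in the window from 24243001 (50.1% in replicate 2 and 28.6% in replicate 1). Windows near full coverage cannot gain much, which limits this contrast. The order of the windows was nevertheless alike, with a Spearman rho of 0.96 across the 30 windows, given as a description since neighbouring windows share domains.

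Cluster ends lay further apart between the replicates in the block than on the rest of 3L. Pairs were matched that overlapped by at least 50% of each partner. Across 92 matched block pairs the median offset was 204 bp at the start and 349.5 bp at the end. It was 54 and 50 bp across 479 pairs on the rest of 3L, and 80.5 and 171.5 bp across 12 flank pairs. The offsets were not set against cluster length. Matched block scores ranked alike, with a Spearman rho of 0.87 over the 92 pairs, as a description over clusters of the same 2 libraries. It was 0.85 over the 479 pairs on the rest of 3L and 0.20 over the 12 flank pairs.

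The relation of score to length differed between the block and the rest of the arm. Over all lengths, block clusters had a higher median score, 0.721 in replicate 1 and 0.751 in replicate 2, against 0.599 and 0.602 on the rest of 3L. At equal length the order depended on the length class. Clusters under 2 kb had a median of 0.625 in the block (63 clusters) and 0.421 on the rest of 3L (254) in replicate 1. In replicate 2 the medians were 0.642 (66) and 0.426 (207). From 2 to under 4 kb the order turned round. The block median was 0.738 (65 clusters), against 0.849 (391) on the rest of 3L in replicate 1, and 0.742 (65) against 0.863 (299) in replicate 2. From 4 to under 8 kb it was again lower in the block, 0.885 (16) against 1.00 (19), and 0.836 (32) against 1.18 (8). Clusters of 8 kb or more had medians of 1.44 (19 clusters) and 1.39 (20) in the block, and the rest of 3L held 1 in each replicate, with scores of 1.39 and 1.27. The Spearman rho of length with score was 0.55 and 0.51 in the block, against 0.81 and 0.78 on the rest of 3L. These are descriptions over clusters of 1 chromosome arm, which are not replicates, so no test was made.

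**Figure D4:**
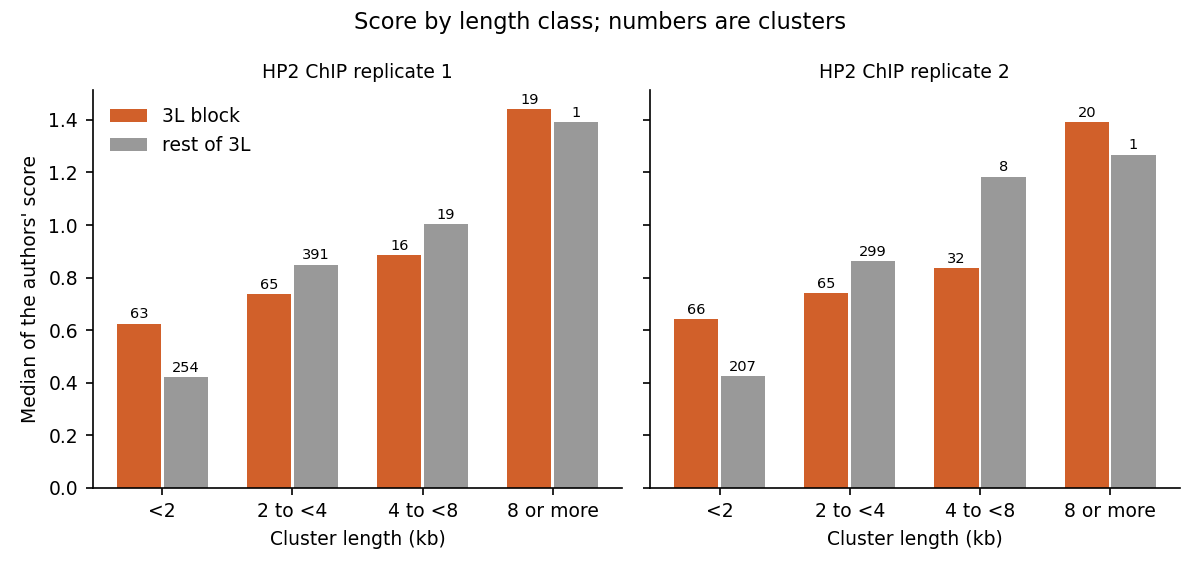
Median authors' score (bars from 0, vertical axis) of clusters in 4 length classes (horizontal axis, kb), for the 3L block and the rest of 3L, in each replicate. The numbers above the bars are clusters. The block is higher below 2 kb and lower from 2 to under 8 kb in both replicates.

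The authors' combined list filled part of the block that the replicates left empty. It covered 71.7% of the block, 12.9% of the flank and 8.25% of the rest of 3L. In the block, 205 kb of its 1084 kb lay where neither replicate had a cluster, out of 628 kb that both replicates left uncovered. Such bases were 18.9% of the combined list in the block and 20.7% on the rest of 3L. It contained 100% of the block bases shared by both replicates. Of its 205 block clusters 53 touched neither replicate, with a median length of 1307 bp and a median score of 0.464, against 3948 bp and 0.615 for the others. Such clusters made up 25.9% of the block list and 24.6% of the list on the rest of 3L, so their share was much the same in both.

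A few of these combined-only clusters carried very high scores. The highest-scoring member of the combined list ran from 23384020 to 23385810 (1791 bp). Its score of 3.70 was the second highest of all 7037 clusters, yet the nearest cluster of either replicate lay 569 bp away. Those from 23819326 to 23820326 (1001 bp, score 3.28) and from 24209094 to 24210098 (1005 bp, 2.43) also touched neither replicate. These made up 3 of the 11 combined members scoring at least 2. After subtraction of the constant of the list, the 3 scores were the log2 of the whole numbers 12, 9 and 5. That constant was itself one of the highest repeated scores of the list less the log2 of a whole number. Whole numbers rather than fractions at these 3 clusters may thus follow from that choice. The score of 3.28 recurred in 7 clusters of the list. They were named after their values were seen.

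Proximal 3L was compared with its closest counterparts. Proximal 2L, defined by the same 2 Mb rule, was 34.6% covered in replicate 1 and 35.6% in replicate 2, so proximal 3L stood 2.26 and 6.57 percentage points above it (mean 4.42 ± 3.05, SD, n = 2). This order was not stable. With a proximal part of 1 Mb it turned to -14.0 points, and with only the higher-scoring clusters to -0.95. The same step fit on 2L gave 63.7% and 67.5% on its centromere side, over 904 kb, against 10.7% and 9.36% on its distal side. The block of 3L, at 45.7% and 53.9% over 1511 kb, was thus longer and less filled than that of 2L in both replicates. Over the whole 2 Mb, 3L held more numerous and shorter clusters, with 184 and 196 members of median length 2238.5 and 2340.5 bp, against 130 and 129 of 2458 and 2867 bp on proximal 2L. 3LHet, the unjoined heterochromatin scaffold assigned to this arm, was covered less than the block, whose edge was placed to bring out its coverage. The block stood 12.9 percentage points above it in replicate 1 and 14.1 in replicate 2. The whole proximal 2 Mb of 3L stood only 4.10 and 2.40 points above 3LHet. In the combined list it was the less covered of the 2, at 57.3% against 59.6%. The median score of the 3LHet clusters, 0.746 in both replicates, was close to that of the block. As in the block, replicate 2 covered more of 3LHet than replicate 1, by 7.02 percentage points. High scores and long clusters were not particular to proximal 3L. In replicates 1 and 2 the highest scores were 3.35 and 3.29 on proximal 2L and 3.67 and 3.70 on 3LHet. Clusters of at least 10 kb numbered 17 and 19 on proximal 2L and 17 and 21 on 3LHet.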

How the data were processed

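HP2 ChIP clusters from fly head nuclei were taken from 3 deposited lists, for 2 replicates and a combined set. The submitters' processing notes name Bowtie 0.12.7, a read aligner. Entries are called enrichment clusters on FlyBase r5, per the file headers. The sources used here name no caller, threshold or way of combining. The authors' score is deposited per cluster with no stated scale, and its whole-number ladder was examined after seeing the data. Clusters were placed by midpoint, covered bases counted once, and ends past the arm trimmed. A least-squares step over 1 kb bins gave the edge. Python 3.11.15, numpy 2.4.6, scipy 1.17.1 and matplotlib 3.10.9 were used. The step fit was tested on simulated data, with the same cluster lengths on both sides, where its error was usually many bins. Depth is unknown, so precision rests on 2 replicates. Members and comparisons were chosen with earlier results of these data known. Named regions were the 10 longest and 5 highest-scoring shared clusters of replicate 1, the 10 longest shared flank clusters, clusters next to the edge, and common gaps of at least 10 kb. Alternatives covered the score limit, the combined list, merging, each replicate alone, region sizes, bin size and edge definitions. The available gene table is on Release 6 and was not used.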

Additional observations from a re-analysis of the deposited data

How the results depend on the processing

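Proximal minus distal coverage of 3L stayed positive under every alternative run for it, and the cause of the changes below was not tested except where a setting itself removes or adds clusters or sequence. Keeping the higher-scoring clusters (the median score of a list or more) gave 29.1% coverage of proximal 3L, 97.5 clusters on average, a median score of 0.871, 30 gaps in the block and a mean edge at 23054001 (23072001 in replicate 1, 23036001 in replicate 2). It turned the difference from proximal 2L to -0.95 points, as did a proximal part of 1 Mb, to -14.0 points. The combined list gave 57.3%, a step of 59.1 points, 7 gaps and a median score of 0.568. Proximal parts of 1 Mb and 4 Mb were 45.6% and 22.4% covered. The mean edge lay at 23030001 with 5 kb bins and at 23028787 with a window of 50 kb at least 50% covered. A fit over 4 Mb and the start of the earliest long run of clusters moved it by less than the spread between replicates. In the combined list the long run began at 23018582 and the 50 kb window at 23004184, both outside its step at 23032001. Gaps, 18.5 per replicate, became 52 with a limit of 5 kb and 4.5 with 20 kb. Shared bases, 69.7% of those in either replicate, were 67.5% with high-scoring clusters, 70.7% after merging within 1 kb, 70.6% in the block and 53.3% in the flank. With each replicate left out in turn, coverage of proximal 3L ranged over 36.9% to 42.2% and the edge over 23032001 to 23033001. No paired analysis was possible because the inputs, which share the replicate numbers of the ChIP samples, enter only through the calls. Differences between parts of the genome were already taken within each replicate. Sequence outside clusters fell below the authors' limit for calling and may still carry HP2.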
